A study of Mus musculus with 23 samples.

Results

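Genes of 8 enzyme families that conjugate, oxidise or reduce small molecules were described in mouse intestinal epithelium: the UDP-glucuronosyltransferases (Ugt), glutathione S-transferases (Gst), sulfotransferases (Sult), alcohol dehydrogenases (Adh), aldehyde dehydrogenases (Aldh), aldo-keto reductases (Akr), quinone oxidoreductases (Nqo) and epoxide hydrolases (Ephx). Members were taken by the family prefix of the gene symbol, and 108 of the 22517 named genes matched. They comprised 20 Ugt, 21 Gst, 18 Sult, 6 Adh, 20 Aldh, 17 Akr, 2 Nqo and 4 Ephx genes.

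These enzymes make hydrophobic compounds easier to excrete. Ugt, Gst and Sult proteins attach glucuronic acid, glutathione or sulfate to drugs, dietary compounds, bile acids, bilirubin and hormones. Adh and Aldh proteins act in sequence on alcohols, among them ethanol and retinol, so that Aldh1a enzymes make retinoic acid from retinal. Akr and Nqo proteins reduce aldehydes, ketones and quinones, Akr proteins and Nqo1 with NADPH or NADH. Ephx proteins open epoxides to diols. Enterocytes, the absorptive cells that cover the villi, meet ingested chemicals first and are known for high levels of many of these enzymes.

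RNA was sequenced in 3 groups of 3 libraries, all from proximal intestine of adult mice of a mixed B6;129 background given 1 to 2 mg tamoxifen on 5 days. Eed-null villus came from EedF/F; Villin-CRE mice, in which Cre recombinase under the Villin promoter removes floxed Eed from the gut epithelium, and wild-type villus came from EedF/F; Cre- mice. ISC, the Lgr5-expressing stem cells of the crypt, came from Eed+/+; Lgr5-EGFP-IRES-CREERT2 mice and were sorted for high GFP. The Eed protein belongs to the core of Polycomb repressive complex 2 (PRC2), which methylates histone H3 and thereby keeps genes silent (the mark H3K27me3). Between Eed-null and wild-type villus, the presence of Cre and the loss of Eed go together. Between villus and ISC, cell type, handling and genotype go together. ISC were dissociated with an enzyme and sorted, whereas villus epithelium was frozen after EDTA release. The Eed alleles and the Lgr5-EGFP-IRES-CREERT2 allele also differ between villus and ISC. Within each comparison the contributions cannot be told apart.

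The deposited tables give 1 RPKM value (reads scaled by gene length and by mapped reads) per group and gene, with no value per library, so no spread can be shown and the depth is unknown. A gene was called where the authors tested it and their q-value, adjusted over all tested genes of the table, was at or below 0.05. The table of Eed-null against wild-type villus and the table of wild-type villus against ISC were scaled separately, so wild-type villus values differ between them by a factor of 1.16193, and both comparisons share the wild-type villus libraries. Of the 108 members, 70 were tested in both comparisons, 3 only between villus and ISC, 2 only between Eed-null and wild-type villus, and 33 in neither. These last 33, among them the 7 Sult2a genes, Akr1d1 and Aldh3a1, stayed at or below 0.257 RPKM in every group, and 12 members were listed at 0 throughout.

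Eed stood at 3.00 RPKM in Eed-null villus and 9.17 RPKM in wild-type villus (q = 6.29e-06 in the authors' deposited table). Lgr5 was 0.607 RPKM in wild-type villus and 18.3 RPKM in ISC, and Sis, the sucrase of the enterocyte brush border, was 1310 RPKM in wild-type villus and 15.9 RPKM in ISC. Between Eed-null and wild-type villus, 1 of 10 enterocyte markers was called lower (summed level 27910 RPKM in Eed-null villus against 37391 RPKM in wild-type villus), and 3 of 8 goblet cell markers were called higher (17428 RPKM in Eed-null villus against 11813 RPKM in wild-type villus), by the authors' deposited q. Of 8 leukocyte markers 1 was called lower in Eed-null villus (summed level 70.3 RPKM in Eed-null villus against 102.7 RPKM in wild-type villus). Paneth cell markers, of the crypt base, summed to 7971 RPKM in Eed-null villus and 6869 RPKM in wild-type villus (1 of 6 called higher). The 6 hepatocyte markers summed to 5.78 RPKM in Eed-null villus against 2.94 RPKM in wild-type villus. All 4 that were tested had higher values in Eed-null villus, and 1 was called, Tat, at 1.91 RPKM in Eed-null villus and 0.325 RPKM in wild-type villus (5.86-fold higher, q = 6.53e-06 in the authors' deposited table). Endothelial and red blood cell markers summed to at most 0.201 RPKM, with Cdh5 and Kdr listed at 0 in wild-type villus. Beside these marker counts stand the shares over all 12525 tested genes, 7.9% higher and 3.46% lower. In lists of so few tested genes, 1 call alone is not read as a shift of that cell type. How far these differences in marker levels contribute to the enzyme values was not tested. In such bulk RNA fewer cells of a type and less RNA per cell cannot be told apart.

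The question of the first comparison is what loss of Eed does to gene expression in differentiated villus epithelium. In Eed-null villus, 7 members were called higher and 14 lower than in wild-type villus, out of 72 tested. By fold, the higher members were led by Akr1b8, the rare Aldh1a2, Ephx1 and Sult1a1, and the lower ones were mainly Ugt2, Adh and Aldh1 genes. By the authors' q-values, 9.72% of tested members were called higher, against 7.9% of all 12525 tested genes, and 19.4% were called lower, against 3.46% of all tested genes. In either direction the shares were 29.2% of members and 11.4% of all tested genes. The median log2 ratio over the 72 members was -0.29, against -0.08 over the 12428 tested genes with a value above 0 in both groups.

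**Figure D1:**
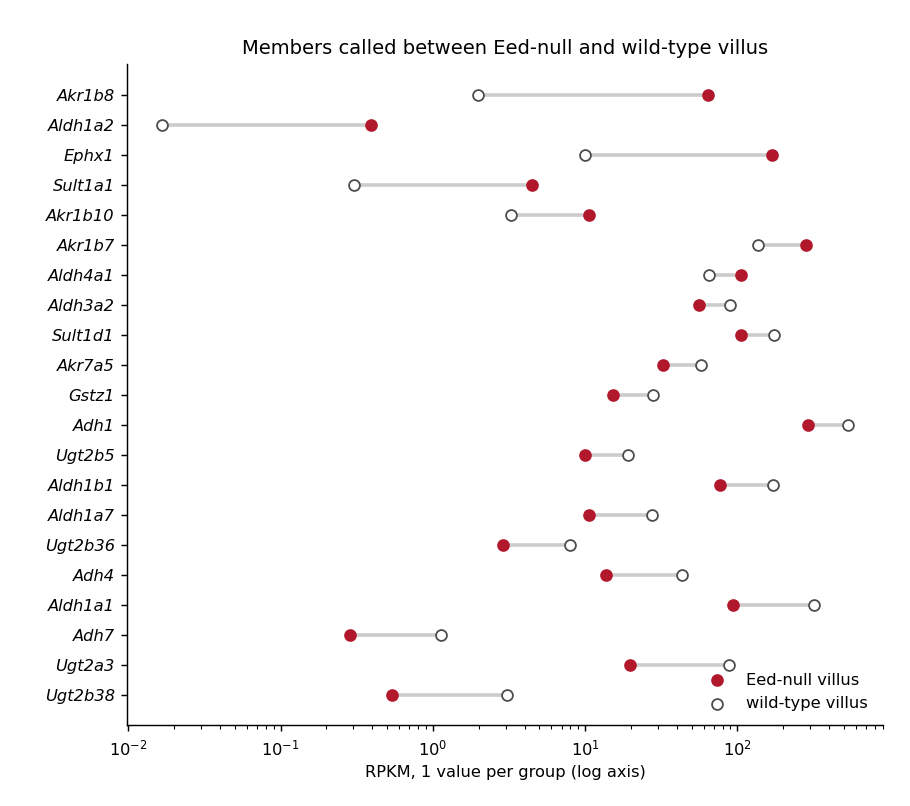
RPKM of the 21 called members in Eed-null villus (filled points) and wild-type villus (open points) on a log axis, 1 deposited value per group, ordered by their ratio. Akr1b8 shows the widest rise, at 64.1 RPKM in Eed-null villus and 1.97 RPKM in wild-type villus, and Ugt2b38 the widest fall.

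Among the called members, Akr1b8, an aldose reductase-like enzyme that reduces aldehydes, had 64.1 RPKM in Eed-null villus and 1.97 RPKM in wild-type villus, 32.6-fold higher with q listed as 0 in the authors' deposited table. Ephx1, the microsomal epoxide hydrolase, had 169 RPKM in Eed-null villus and 10.01 RPKM in wild-type villus, 16.9-fold higher with q again listed as 0 in the authors' deposited table. Sult1a1, a sulfotransferase for phenols, had 4.47 RPKM in Eed-null villus and 0.304 RPKM in wild-type villus, 14.7-fold higher (q = 1.24e-10 in the authors' deposited table). After its rise Ephx1 was among the 19 members at 100 RPKM or more in Eed-null villus, while Sult1a1 remained a low-abundance transcript. Aldh1a2, a retinal dehydrogenase, rose 23.7-fold but stayed rare, at 0.392 RPKM in Eed-null villus and 0.0166 RPKM in wild-type villus (q = 0.0271 in the authors' deposited table). Ephx4, an epoxide hydrolase-like gene, had 0.668 RPKM in Eed-null villus and 0.0127 RPKM in wild-type villus, and was not called (q = 0.111 in the authors' deposited table).

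PRC2 is known in mammals for acting at promoters rich in CpG dinucleotides. For that reason the promoter windows of these genes, from 250 bases before to 50 bases after the RefSeq start on GRCm38.p6, are shown with every CpG in capitals. The 5 genes were picked after their values were seen, as the members with the highest fold in Eed-null villus. Aldh1a2 lies on the plus strand at chr9:71215539-71215838. Ephx4 has 2 listed windows, of which the one richer in CpG is on the plus strand at chr5:107403263-107403562. Akr1b8 is on the plus strand at chr6:34353896-34354195, Ephx1 on the minus strand at chr1:181017520-181017819 and Sult1a1 on the minus strand at chr7:126676369-126676668.
Aldh1a2: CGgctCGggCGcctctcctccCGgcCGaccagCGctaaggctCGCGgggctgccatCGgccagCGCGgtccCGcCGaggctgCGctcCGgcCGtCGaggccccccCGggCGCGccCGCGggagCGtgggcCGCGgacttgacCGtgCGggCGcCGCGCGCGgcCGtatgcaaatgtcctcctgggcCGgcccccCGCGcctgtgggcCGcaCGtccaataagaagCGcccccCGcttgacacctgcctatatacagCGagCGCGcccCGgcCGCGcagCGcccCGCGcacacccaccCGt
Ephx4: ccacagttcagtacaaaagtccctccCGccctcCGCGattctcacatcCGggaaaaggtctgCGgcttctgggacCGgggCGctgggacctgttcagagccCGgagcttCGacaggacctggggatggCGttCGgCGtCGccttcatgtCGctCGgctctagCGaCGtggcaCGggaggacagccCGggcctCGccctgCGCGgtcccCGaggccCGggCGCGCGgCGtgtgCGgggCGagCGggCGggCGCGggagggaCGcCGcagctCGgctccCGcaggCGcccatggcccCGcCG
Akr1b8: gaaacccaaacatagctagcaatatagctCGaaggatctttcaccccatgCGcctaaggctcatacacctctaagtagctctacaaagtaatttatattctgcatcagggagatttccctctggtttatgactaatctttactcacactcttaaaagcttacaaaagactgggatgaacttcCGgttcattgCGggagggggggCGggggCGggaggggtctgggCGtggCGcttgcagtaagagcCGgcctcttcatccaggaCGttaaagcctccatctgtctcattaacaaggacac
Ephx1: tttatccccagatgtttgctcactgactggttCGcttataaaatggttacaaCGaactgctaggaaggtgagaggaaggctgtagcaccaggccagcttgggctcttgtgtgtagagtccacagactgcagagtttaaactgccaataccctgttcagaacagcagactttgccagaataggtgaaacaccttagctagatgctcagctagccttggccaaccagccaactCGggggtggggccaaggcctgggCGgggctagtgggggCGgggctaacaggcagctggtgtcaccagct
Sult1a1: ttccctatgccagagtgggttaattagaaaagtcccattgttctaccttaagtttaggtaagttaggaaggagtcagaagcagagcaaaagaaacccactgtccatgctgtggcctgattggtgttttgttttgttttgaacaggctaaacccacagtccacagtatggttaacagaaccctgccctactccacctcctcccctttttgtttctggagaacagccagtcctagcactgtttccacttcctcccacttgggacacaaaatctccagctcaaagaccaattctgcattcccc

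The windows differ widely in CpG content. Aldh1a2 holds 50 CpG and Ephx4 holds 41, whereas Akr1b8 holds 10, Ephx1 holds 5 and Sult1a1 none. Relative to the number that the base composition alone gives, the observed over expected ratio was 1.11 for Aldh1a2 and 1.02 for this Ephx4 window, the 2 highest of the 105 windows matched to members. It was 0.555 for Akr1b8, 0.229 for Ephx1 and 0 for Sult1a1. The other Ephx4 window had a ratio of 0.322, and the mean over both Ephx4 windows was 0.670. Of the 5 genes, Aldh1a2 and Ephx4 also had the lowest levels in wild-type villus, at 0.0166 and 0.0127 RPKM. A choice by fold favours genes with such values near 0, and Ephx4 was not called. No relation between CpG content and level is therefore drawn from these 5 genes, and action of PRC2 at their windows was not tested.

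RefSeq windows were found for 90 of the 108 members. Averaged over the windows of a gene, an observed over expected CpG ratio of 0.6 or more was present in 10 of these 90 members (11.1%, median ratio 0.227), against 6389 of the 9260 genes tested in the Eed-null comparison that had a window (69.0%, median 0.747). Among called members the count was 1 of 7 higher in Eed-null villus (Aldh1a2) and 2 of 14 lower (Akr7a5 and Aldh3a2), and among tested members not called it was 6 of 44. CpG-poor promoters were thus the common kind in these families whichever way the members moved.

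**Figure D2:**
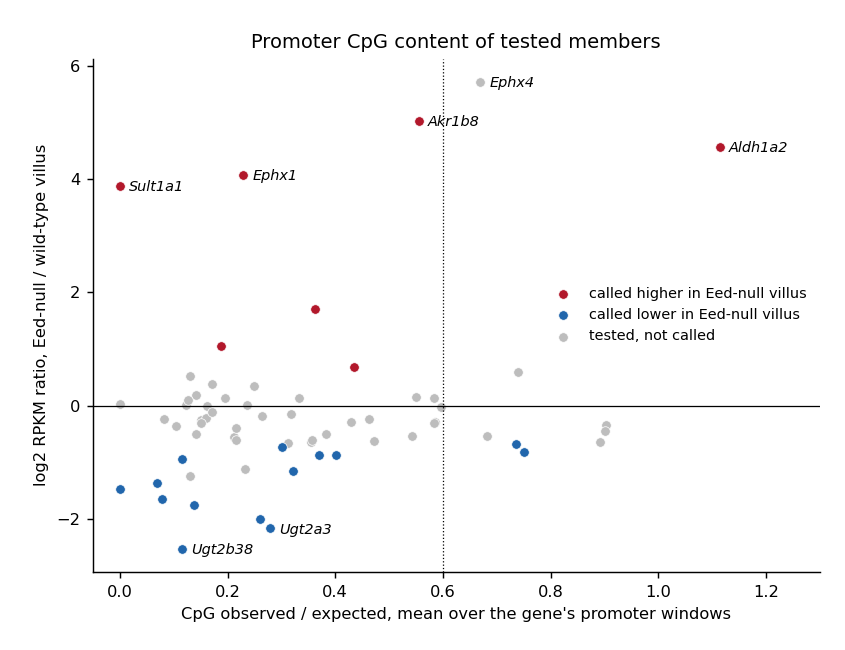
CpG observed over expected ratio of the RefSeq promoter windows (mean per gene, horizontal axis) against the log2 RPKM ratio of Eed-null over wild-type villus (vertical axis) for tested members with a window; each point is 1 gene, coloured by its call, and the dotted line marks 0.6. Aldh1a2 and Ephx4 lie to the right of the line, and Sult1a1, Ephx1 and Akr1b8 to its left.

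The windows were also searched on both strands for the core of the antioxidant response element bound by NRF2, TGACNNNGC, and for the core of the response element of the aryl hydrocarbon receptor, GCGTG. The first was found in 8 of the 105 member windows (7.62%) and in 12.4% of all 32851 windows, and the second in 25 member windows (23.8%) and in 32.4% of all windows. A letter match describes the window and is not a shown binding site. The HNF4-type letters CAAAGTCC were present in 2 member windows (1.90%) and 1.42% of all windows, and TATAAA in 19 member windows (18.1%) and 13.6% of all windows. Base composition differs as well: G and C made up a median of 46.8% in members and 60.3% in tested genes with a window. GCGTG itself contains a CpG. The shares were not adjusted for base composition, and its part in them was not tested.

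Aldo-keto reductases. In this family 3 of 11 tested members were called higher in Eed-null villus and 1 lower. The 3 higher members were neighbours in the Akr1b cluster on chromosome 6 (mm9 34253929 to 34373137), which holds 4 members. Akr1b7, a further aldose reductase-like gene, had 283 RPKM in Eed-null villus and 137 RPKM in wild-type villus, 2.08-fold higher (q = 0.000258 in the authors' deposited table). Akr1b10 had 10.7 RPKM in Eed-null villus and 3.26 RPKM in wild-type villus, 3.27-fold higher (q = 9.89e-06 in the authors' deposited table). Akr1b3, the classical aldose reductase that makes sorbitol from glucose, was 1.71 RPKM in Eed-null villus and 1.82 RPKM in wild-type villus and was not called (q = 0.994 in the authors' deposited table). As this gene shares a locus entry with another, its value is uncertain. The summed level of the 4 Akr1b members was 360 RPKM in Eed-null villus and 144 RPKM in wild-type villus, of which Akr1b7 made up 78.7% in Eed-null villus and 95.1% in wild-type villus.

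The Akr1c genes, whose products act on steroids and prostaglandins, showed no call in the same comparison. They lie with Akr1e1 in a cluster of 9 members on chromosome 13, of which 5 were tested. Akr1c19 was 115 RPKM in Eed-null villus and 135 RPKM in wild-type villus (q = 0.671 in the authors' deposited table). Akr1c13 was 85.6 RPKM in Eed-null villus and 121 RPKM in wild-type villus (q = 0.181 in the authors' deposited table). Akr1e1 had the lowest q of the uncalled members with 10 RPKM or more, 0.0618 in the authors' deposited table, with 14.02 RPKM in Eed-null villus and 22.2 RPKM in wild-type villus. The called fall in the family was in Akr7a5, an aflatoxin aldehyde reductase, at 32.7 RPKM in Eed-null villus and 57.8 RPKM in wild-type villus (1.77-fold lower, q = 0.00476 in the authors' deposited table). Akr1a1, the general aldehyde reductase and the family's most abundant member in every group, was 577 RPKM in Eed-null villus and 586 RPKM in wild-type villus.

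Epoxide hydrolases and quinone oxidoreductases. Ephx1 changed the make-up of its family. It supplied 43.1% of the summed Ephx level in Eed-null villus and 2.87% in wild-type villus. Ephx2, the soluble hydrolase of fatty acid epoxides, supplied most of the rest, at 222 RPKM in Eed-null villus and 339 RPKM in wild-type villus (q = 0.108 in the authors' deposited table, not called). The family's sum was 392 RPKM in Eed-null villus and 349 RPKM in wild-type villus. Nqo1, the quinone reductase that is a classical NRF2 target, was 30.6 RPKM in Eed-null villus and 24.2 RPKM in wild-type villus (q = 0.483 in the authors' deposited table, not called). Nqo2 was 6.58 RPKM in Eed-null villus against 8.69 RPKM in wild-type villus and shares its locus entry with another gene.

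Alcohol dehydrogenases. All 5 functional Adh members were tested, and 3 were called lower in Eed-null villus and none higher. Adh4 had 13.8 RPKM in Eed-null villus and 43.1 RPKM in wild-type villus (3.13-fold lower, q = 6.71e-09 in the authors' deposited table). Adh1, the class of enzyme that oxidises ethanol and retinol, had 293 RPKM in Eed-null villus and 536 RPKM in wild-type villus (1.83-fold lower, q = 0.00643 in the authors' deposited table). Adh7, a retinol dehydrogenase best known from stomach, was low throughout, at 0.284 RPKM in Eed-null villus and 1.13 RPKM in wild-type villus (3.99-fold lower, q = 0.000913 in the authors' deposited table). These 3 genes lie in the same cluster as the 2 that were not called. Adh6a, the most abundant Adh gene of the villus, stood at 733 RPKM in Eed-null villus and 646 RPKM in wild-type villus (q = 0.804 in the authors' deposited table). Adh5, which handles formaldehyde bound to glutathione, was 31.5 RPKM in Eed-null villus against 45.8 RPKM in wild-type villus (q = 0.132 in the authors' deposited table). Because of Adh6a, which made up 68.4% of the family's sum in Eed-null villus and 50.8% in wild-type villus, the sum was 1071 RPKM in Eed-null villus and 1272 RPKM in wild-type villus.

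Aldehyde dehydrogenases. In Eed-null villus 2 of 15 tested members were called higher and 4 lower. Aldh1a1, a cytosolic enzyme that makes retinoic acid, was the most abundant member in wild-type villus and had 94.1 RPKM in Eed-null villus and 319 RPKM in wild-type villus (3.39-fold lower, q = 2.7e-10 in the authors' deposited table). Its rodent paralogue Aldh1a7, which lies beside it on chromosome 19, had 10.6 RPKM in Eed-null villus and 27.3 RPKM in wild-type villus (2.59-fold lower, q = 1.8e-06 in the authors' deposited table). Aldh1b1, a mitochondrial enzyme, had 76.9 RPKM in Eed-null villus and 171 RPKM in wild-type villus (2.23-fold lower, q = 2.9e-05 in the authors' deposited table). The Aldh1 subfamily thus held falls in Aldh1a1, Aldh1a7 and Aldh1b1 beside the rise of the rare Aldh1a2, and its sum was 244 RPKM in Eed-null villus and 574 RPKM in wild-type villus. Aldh3a2, the fatty aldehyde dehydrogenase, had 55.7 RPKM in Eed-null villus and 89.3 RPKM in wild-type villus (1.60-fold lower, q = 0.0338 in the authors' deposited table). Aldh4a1, a mitochondrial enzyme of proline breakdown, moved the other way, with 106 RPKM in Eed-null villus and 65.6 RPKM in wild-type villus (1.61-fold higher, q = 0.0341 in the authors' deposited table).

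Members of the family that were not called included Aldh2, the mitochondrial acetaldehyde dehydrogenase, at 145 RPKM in Eed-null villus and 110 RPKM in wild-type villus (q = 0.346 in the authors' deposited table). Aldh9a1, which acts on aminoaldehydes, was 108 RPKM in Eed-null villus against 168 RPKM in wild-type villus (q = 0.0621 in the authors' deposited table). The most abundant Aldh member was accordingly Aldh2 in Eed-null villus and Aldh1a1 in wild-type villus. The family's sum was 760 RPKM in Eed-null villus and 1131 RPKM in wild-type villus, a ratio of 0.672, the lowest of the 8 families.

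UDP-glucuronosyltransferases. Of 12 tested members 4 were called lower in Eed-null villus and none higher. These 4 were among the 6 tested genes of the Ugt2 cluster on chromosome 5 (mm9 87318794 to 87919896). Ugt2a3, which in humans glucuronidates bile acids, had 19.7 RPKM in Eed-null villus and 88.3 RPKM in wild-type villus, 4.49-fold lower with q listed as 0 in the authors' deposited table. Ugt2b38 had 0.537 RPKM in Eed-null villus and 3.09 RPKM in wild-type villus (5.76-fold lower, q = 8.43e-06 in the authors' deposited table). Ugt2b36 had 2.87 RPKM in Eed-null villus and 7.95 RPKM in wild-type villus (2.77-fold lower, q = 0.000105 in the authors' deposited table). The fourth, Ugt2b5, had 10.03 RPKM in Eed-null villus and 19.2 RPKM in wild-type villus (1.91-fold lower, q = 0.00472 in the authors' deposited table).

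The most abundant gene of the cluster was not among those called. Ugt2b34 had 381 RPKM in Eed-null villus and 372 RPKM in wild-type villus (q = 0.985 in the authors' deposited table) and supplied 62.2% of the Ugt sum in Eed-null villus and 48.9% in wild-type villus. Ugt2b35 was 13.04 RPKM in Eed-null villus against 19.9 RPKM in wild-type villus (q = 0.0761 in the authors' deposited table). The 8 Ugt1a genes are alternative first exons joined to shared exons on chromosome 1, and the tables print the same locus for each, so the split of reads among them is uncertain. None of the 6 tested Ugt1a genes was called in this comparison. Ugt1a1, the bilirubin-conjugating form, had 35.1 RPKM in Eed-null villus and 82.9 RPKM in wild-type villus (q = 0.146 in the authors' deposited table), the lowest ratio, 0.423, of the 39 uncalled members with 10 RPKM or more in wild-type villus. Ugt1a7c was 139 RPKM in Eed-null villus against 150 RPKM in wild-type villus (q = 0.927 in the authors' deposited table).

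Glutathione S-transferases. Of 19 tested members 1 was called, lower in Eed-null villus. This was Gstz1, an isomerase of tyrosine breakdown, with 15.3 RPKM in Eed-null villus and 27.9 RPKM in wild-type villus (1.83-fold lower, q = 0.0178 in the authors' deposited table). Like some other members, it shares a locus entry with another gene. Gsto1, a thioltransferase that reduces dehydroascorbate, was the most abundant Gst gene in every group, at 536 RPKM in Eed-null villus and 489 RPKM in wild-type villus (q = 0.864 in the authors' deposited table). Gstm3 was 222 RPKM in Eed-null villus and 324 RPKM in wild-type villus (q = 0.156 in the authors' deposited table). Gsta4, which conjugates aldehydes from lipid peroxidation, was 149 RPKM in Eed-null villus against 105 RPKM in wild-type villus (q = 0.218 in the authors' deposited table). The tested mu-class genes, 7 neighbours on chromosome 3, had log2 ratios between -0.55 and 0.59 and no call. The upper end was Gstm5, which shares a locus entry with another gene. Gstp1, the main pi-class gene, was 112 RPKM in Eed-null villus and 163 RPKM in wild-type villus (q = 0.117 in the authors' deposited table).

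Sulfotransferases. Besides Sult1a1, the call in this family was Sult1d1, which in mice sulfates catecholamines, at 106 RPKM in Eed-null villus and 175 RPKM in wild-type villus (1.65-fold lower, q = 0.0269 in the authors' deposited table). Its cluster neighbour Sult1b1, a sulfotransferase for thyroid hormones, was 219 RPKM in Eed-null villus and 218 RPKM in wild-type villus (q = 0.997 in the authors' deposited table). Sult2b1, which sulfates cholesterol, was 194 RPKM in Eed-null villus against 174 RPKM in wild-type villus (q = 0.801 in the authors' deposited table). These 3 genes made up nearly the whole Sult sum of 525 RPKM in Eed-null villus and 569 RPKM in wild-type villus. Even after its rise Sult1a1 remained far below them.

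**Figure D3:**
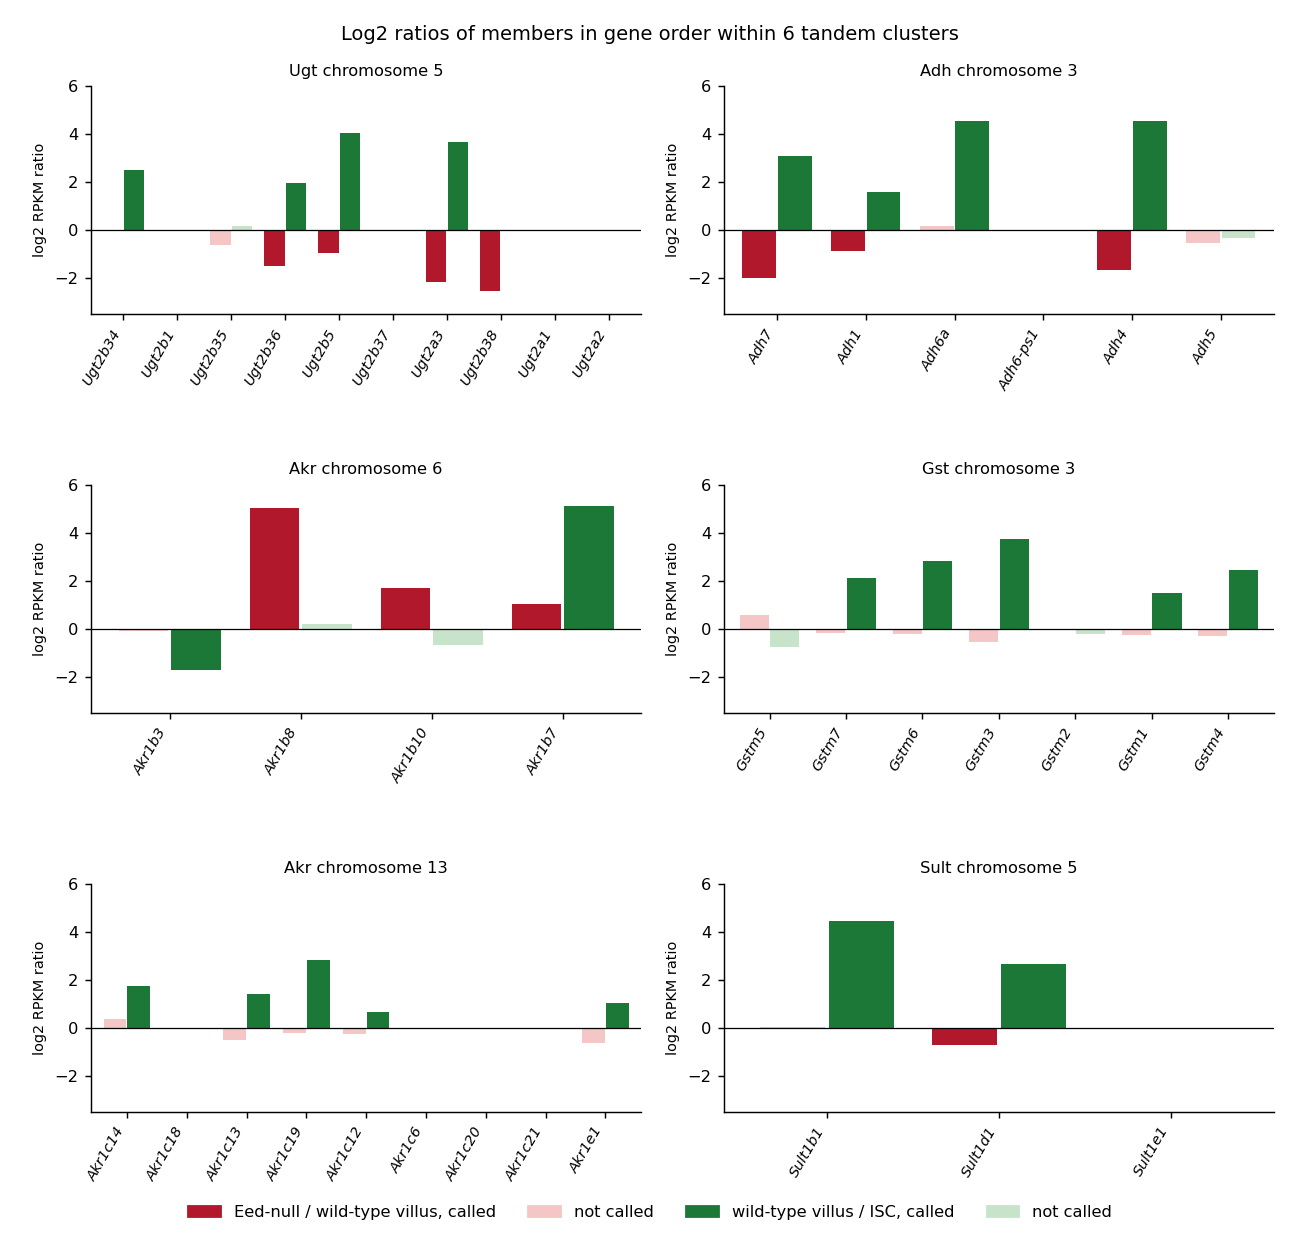
Log2 RPKM ratios of neighbouring members in 6 clusters, drawn in gene order: Eed-null over wild-type villus (red, left bar of each pair) and wild-type villus over ISC (green, right bar), dark where called and pale where tested without a call; genes not tested, or listed at 0 in a group, have no bar. Within the Ugt2 and Adh clusters some neighbours fell in Eed-null villus while Ugt2b34 and Adh6a, the most abundant, were not called, and in the Akr1b cluster 3 of 4 rose.

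Genes within a cluster are similar in sequence, and how reads matching several of them were assigned is not stated in the sources used here, so the split between near copies is uncertain. Over clusters of at least 3 members no more than 500 kb apart, the calls between Eed-null and wild-type villus by the authors' q were 4 lower of 6 tested in the Ugt2 cluster, 3 lower of 5 in the Adh cluster, 3 higher of 4 in the Akr1b cluster and 1 lower of 2 in the Sult1 cluster. There were none among 7 in the Gstm cluster, 6 in the Ugt1a cluster, 5 in the Akr1c cluster, 3 in the Gsta cluster and 3 in the Gstt cluster. Over all tested genes, 11.4% were called in either direction, 7.9% higher and 3.46% lower. At that share, a cluster of so few tested genes without a call is not read as different from other genes. No cluster held called members of both directions.

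Of the 53 members with 10 RPKM or more in wild-type villus, 39 had no call between Eed-null and wild-type villus. For comparison, 29.2% of tested members of any level were called, against 11.4% of all tested genes. The 39 uncalled members had ratios of Eed-null over wild-type villus between 0.423 and 1.502 and a median of 0.844. The value was lower in Eed-null villus in 26 of them and higher in 13. Besides those described above, they were Akr1c12, Akr1c14, Aldh16a1, Aldh18a1, Aldh1l1, Aldh3b1, Gsta1, Gstk1, Gstm1, Gstm2, Gstm4, Gstm5, Gstm6, Gstm7, Gstp2, Gstt1, Gstt2, Gstt3 and Ugt1a9. The summed level of all 108 members was 6223 RPKM in Eed-null villus and 6998 RPKM in wild-type villus. Members at 100 RPKM or more numbered 19 in Eed-null villus and 22 in wild-type villus.

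The second comparison asks how differentiated villus epithelium differs from its stem cells. In wild-type villus, 48 of 73 tested members were called higher and 9 lower than in ISC. Members of every family were among the higher ones, whereas 7 of the 9 lower ones were Aldh genes. By the authors' q-values the shares were 65.8% higher and 12.3% lower, or 78.1% in either direction, against 30.5% higher, 32.3% lower and 62.8% in either direction of all 13007 tested genes. The median log2 ratio of wild-type villus over ISC was 1.75 over the 71 tested members above 0 in both groups, and -0.10 over all tested genes, which leaves 1.85 relative to them. Summed over the 108 members, the level was 8132 RPKM in wild-type villus and 2411 RPKM in ISC, and 25 members in wild-type villus and 4 in ISC reached 100 RPKM.

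**Figure D4:**
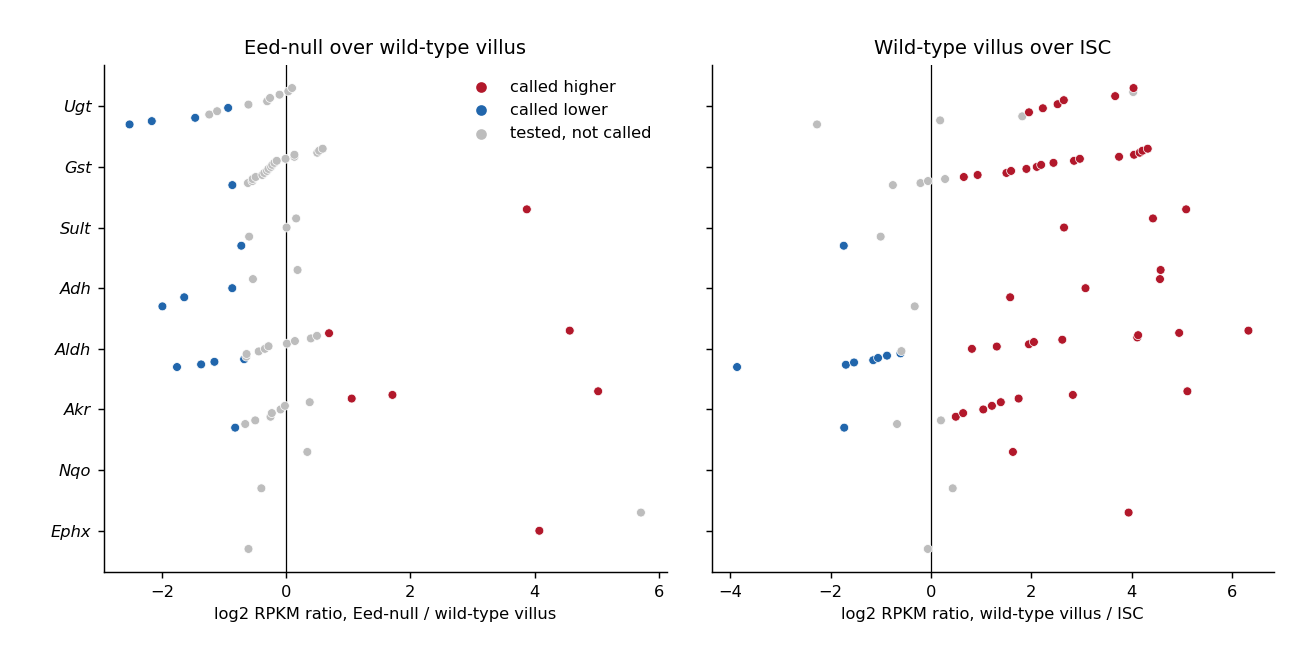
Log2 RPKM ratios of the tested members by family, for Eed-null over wild-type villus (left) and wild-type villus over ISC (right); each point is 1 gene, red where called higher, blue where called lower and grey where tested without a call. Ugt2b38 and Ugt1a10 have no point on the right because they are listed at 0 in ISC. On the right most points lie above 0 and the called lower ones are mainly Aldh genes.

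Of the conjugating enzymes, 25 of 36 tested were called higher in wild-type villus than in ISC (69.4%) and 1 lower (2.78%). Of all tested genes, 30.5% were called higher and 32.3% lower. Sult2b1 was 202 RPKM in wild-type villus and 5.95 RPKM in ISC, 34.0-fold higher with q listed as 0 in the authors' deposited table. Sult1b1 was 254 RPKM in wild-type villus and 11.8 RPKM in ISC, 21.5-fold higher with q likewise 0 in the authors' deposited table. The alpha-class transferases Gsta1 to Gsta4 were 7.83-fold to 19.99-fold higher, with Gsta1 at 46.4 RPKM in wild-type villus and 2.32 RPKM in ISC by the authors' deposited table. In the Gst family 15 of 19 were called higher and none lower. The ones without a call were Gstm2, Gstm5, Gstt2 and Gstz1, for example Gstm2 at 34.0 RPKM in wild-type villus and 39.3 RPKM in ISC.

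Among the Ugt genes 7 of 12 tested were called higher in wild-type villus and none lower. In either direction this was 58.3%, near the 62.8% of all tested genes, of which 30.5% were higher and 32.3% lower. The 7 include Ugt1a1 and Ugt1a7c, whose split of reads is uncertain because the Ugt1a genes share a locus entry. Ugt2b5 was 22.3 RPKM in wild-type villus and 1.36 RPKM in ISC (16.4-fold higher, q listed as 0 in the authors' deposited table), and Ugt2a3 was 103 RPKM in wild-type villus and 8.05 RPKM in ISC (12.7-fold higher, q listed as 0 in the authors' deposited table). Ugt2b38, at 3.59 RPKM in wild-type villus, is listed at 0 in ISC (q = 4.73e-07 in the authors' deposited table). Ugt2b34 led the family in both groups, at 433 RPKM in wild-type villus and 75.2 RPKM in ISC. Sult1a1, one of the genes with the highest fold in the Eed-null comparison, was lower in wild-type villus than in ISC, at 0.354 RPKM in wild-type villus and 1.18 RPKM in ISC (q = 0.0148 in the authors' deposited table).

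Of the dehydrogenases and reductases, 22 of 35 tested were called higher in wild-type villus (62.9%) and 8 lower (22.9%). The shares of all tested genes were 30.5% higher and 32.3% lower. Aldh4a1 had the highest fold of all members, at 76.2 RPKM in wild-type villus and 0.948 RPKM in ISC, 80.4-fold higher with q listed as 0 in the authors' deposited table. Akr1b7 was 159 RPKM in wild-type villus and 4.59 RPKM in ISC (34.6-fold higher), Aldh1a1 was 370 RPKM in wild-type villus and 12.0 RPKM in ISC (30.9-fold higher), and Adh6a was 750.5 RPKM in wild-type villus and 31.4 RPKM in ISC (23.9-fold higher), each with q listed as 0 in the authors' deposited table. In wild-type villus these 3 genes were among the most abundant of their families. Akr1b8 did not follow its neighbour Akr1b7, at 2.29 RPKM in wild-type villus and 2.00 RPKM in ISC (q = 0.749 in the authors' deposited table). Nqo1 was 28.1 RPKM in wild-type villus and 9.07 RPKM in ISC (3.10-fold higher, q = 8.11e-09 in the authors' deposited table). Ephx2 was 394 RPKM in wild-type villus and 25.7 RPKM in ISC (15.3-fold higher), while Ephx1 was 11.6 RPKM in wild-type villus and 12.2 RPKM in ISC (q = 0.856 in the authors' deposited table).

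Of the 7 Aldh genes lower in wild-type villus than in ISC, Aldh1b1, the most abundant member of all in ISC, was 199 RPKM in wild-type villus and 443 RPKM in ISC (2.22-fold lower, q = 0.000418 in the authors' deposited table). Aldh18a1, which makes proline, was 38.2 RPKM in wild-type villus and 70.2 RPKM in ISC (1.84-fold lower, q = 0.000366 in the authors' deposited table). Aldh8a1, of tryptophan breakdown, was 0.152 RPKM in wild-type villus and 2.22 RPKM in ISC (14.6-fold lower, q = 4.87e-09 in the authors' deposited table). The other lower genes were Aldh1l2, Aldh5a1, Aldh6a1, Aldh7a1, Sult1a1 and Akr1b3. Of these, Aldh5a1, Aldh6a1, Aldh7a1 and Akr1b3 share a locus entry with another gene, so 5 lower calls are left without them. A single gene, Aldh1b1, held 60.6% of the summed Aldh level in ISC, and Aldh1a1 held 28.2% in wild-type villus.

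**Figure D5:**
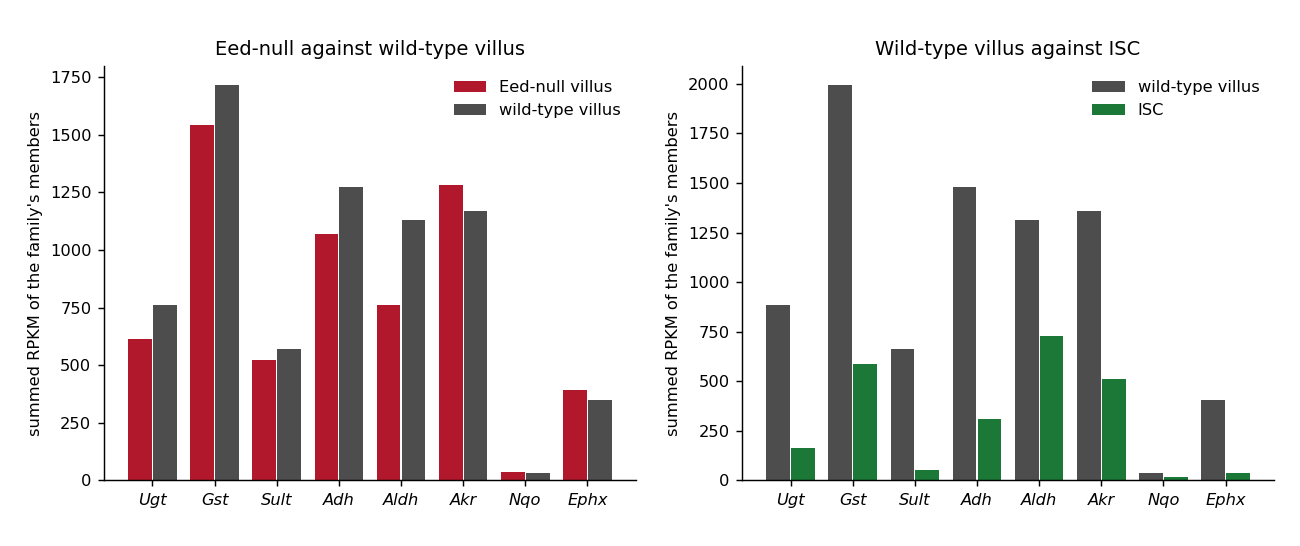
Summed RPKM of the members of each family, for Eed-null villus beside wild-type villus (left) and wild-type villus beside ISC (right); bars are sums of 1 deposited value per gene, without error, and the 2 panels are scaled separately. The Aldh sum is 760 RPKM in Eed-null villus and 1131 RPKM in wild-type villus, and the Sult sum is 661 RPKM in wild-type villus and 54.0 RPKM in ISC.

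Side by side, the called members combined the directions in several ways, and the comparisons share the wild-type villus values, so no relation between them is drawn. Aldh1a1 was 30.9-fold higher in wild-type villus than in ISC and 3.39-fold lower in Eed-null than in wild-type villus. Akr1b7 and Aldh4a1 were higher in wild-type villus than in ISC and also higher in Eed-null than in wild-type villus. Aldh1b1 was lower in both. The family sums of wild-type villus over ISC ranged from 1.80 for Aldh to 12.2 for Sult, and those of Eed-null over wild-type villus from 0.672 for Aldh to 1.13 for Nqo.

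Genes that supply or regulate the families were described from lists outside them. Of 22 tested NRF2 targets, genes of the response to oxidants and electrophiles, 6 were called higher in Eed-null villus and none lower, with a median log2 ratio of 0.22, against 7.9% higher, 3.46% lower and a median of -0.08 over all tested genes. Gpx2, a glutathione peroxidase of the gut, was 1017 RPKM in Eed-null villus and 392 RPKM in wild-type villus (2.60-fold higher, q = 4.21e-06 in the authors' deposited table). Cbr3, a carbonyl reductase, was 8.88 RPKM in Eed-null villus and 2.54 RPKM in wild-type villus (3.49-fold higher, q = 4.64e-05 in the authors' deposited table). Hmox1, the heme oxygenase, was 3.33 RPKM in Eed-null villus and 0.926 RPKM in wild-type villus (3.59-fold higher, q = 0.000232 in the authors' deposited table). Gsr, Gclc and Me1, which provide reduced glutathione or NADPH, were the others called. The gene for NRF2 itself, Nfe2l2, was 92.9 RPKM in Eed-null villus and 87.9 RPKM in wild-type villus (q = 0.926 in the authors' deposited table). Srxn1, the sulfiredoxin gene and an uncalled target, was 186 RPKM in Eed-null villus against 159 RPKM in wild-type villus. By value alone, called or not, 15 of the 22 targets were higher in Eed-null villus and 7 lower. Among the uncalled lower ones, Prdx6 was 44.0 RPKM in Eed-null villus against 60.1 RPKM in wild-type villus.

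Cofactor supply gave 5 called higher of 19 and none lower in Eed-null villus, with a median log2 ratio of 0.12 and 3 of the 5 genes shared with the list above. For this list and the transporters below, the shares over all tested genes were 7.9% higher and 3.46% lower. Slc35d1, which carries UDP-glucuronic acid into the endoplasmic reticulum, was 24.2 RPKM in Eed-null villus and 11.3 RPKM in wild-type villus (2.14-fold higher, q = 0.000121 in the authors' deposited table). Gclc, the rate-limiting enzyme of glutathione synthesis, was 46.7 RPKM in Eed-null villus and 23.3 RPKM in wild-type villus (2.00-fold higher, q = 0.000595 in the authors' deposited table). Gst genes, which use glutathione, held a single call in the other direction. Of 8 efflux transporters of conjugates, 3 were called higher in Eed-null villus (median log2 ratio 0.56), namely Abcc5, Abcc4 and Abcb1b, and of these Abcc5 alone exceeded 1 RPKM, at 10.5 RPKM in Eed-null villus and 3.75 RPKM in wild-type villus (q = 0.00532 in the authors' deposited table). Abcc2, which exports glucuronides and is the most abundant of the list, was 201 RPKM in Eed-null villus against 147 RPKM in wild-type villus (q = 0.369 in the authors' deposited table).

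Among 25 sensors and regulators of these pathways, 2 were called lower in Eed-null villus and none higher, against 11.4% called among all tested genes, and the median log2 ratio was -0.26. Cdx2, the intestinal homeobox factor, was 31.1 RPKM in Eed-null villus and 61.0 RPKM in wild-type villus (q = 0.000487 in the authors' deposited table), and Ppara, the fatty acid receptor, was 8.37 RPKM in Eed-null villus and 17.1 RPKM in wild-type villus (q = 0.00386 in the authors' deposited table). Neither Nr1i2, the pregnane X receptor (60.2 RPKM in Eed-null villus against 72.1 RPKM in wild-type villus), nor Ahr, the aryl hydrocarbon receptor (2.30 RPKM in Eed-null villus against 3.78 RPKM in wild-type villus), was called by the authors' deposited q. Of 40 other drug and hormone metabolising enzymes, 9 were lower (22.5%) and 5 higher (12.5%) in Eed-null villus by the authors' deposited q. The shares over all tested genes were 3.46% lower and 7.9% higher. The median log2 ratio of the 40 enzymes was -0.34. Rdh7, a retinol dehydrogenase that acts on the same substrate as the Adh genes, was 28.6 RPKM in Eed-null villus and 120 RPKM in wild-type villus (4.21-fold lower, q = 1.37e-12 in the authors' deposited table). Mgst1, a membrane-bound glutathione transferase outside the families, was 112 RPKM in Eed-null villus and 208 RPKM in wild-type villus (q = 0.00177 in the authors' deposited table).

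Between wild-type villus and ISC the same lists were mostly called higher: 17 of 22 NRF2 targets with 1 lower, 16 of 19 cofactor genes with 1 lower, 32 of 39 other enzymes with 4 lower, 15 of 25 sensors and regulators with 2 lower, and 4 of 7 transporters with 2 lower, by the authors' deposited q. Their median log2 ratios were 1.15 for NRF2 targets, 1.23 for cofactor genes, 2.67 for other enzymes, 0.54 for sensors and regulators and 0.92 for transporters, against -0.10 over all tested genes. Of all 13007 tested genes, 30.5% were called higher and 32.3% lower in wild-type villus. These shares belong beside the list counts above and the marker counts below. Papss2, which makes the sulfate donor used by Sult enzymes, was 360 RPKM in wild-type villus and 7.62 RPKM in ISC, and Ugdh, which makes UDP-glucuronic acid, was 275 RPKM in wild-type villus and 21.6 RPKM in ISC. Abcc2 was 171 RPKM in wild-type villus and 6.49 RPKM in ISC. Enterocyte markers were called higher in wild-type villus as well, 10 of 10, with a summed level of 43446 RPKM in wild-type villus and 987 RPKM in ISC. Of the markers of other cells, 7 of 8 leukocyte markers (119 RPKM in wild-type villus and 26.6 RPKM in ISC) and 5 of 6 tuft cell markers (59.6 RPKM in wild-type villus and 9.498 RPKM in ISC) were called higher in wild-type villus. Called lower in wild-type villus were 8 of 8 stem cell markers (146 RPKM in wild-type villus and 3338 RPKM in ISC), 4 of 4 tested Paneth cell markers and 5 of 8 pancreas acinar markers (117 RPKM in wild-type villus and 481 RPKM in ISC). Nearly all of the acinar sum was Clps, at 116 RPKM in wild-type villus and 476 RPKM in ISC. Every other acinar marker stayed at or below 1.36 RPKM in these groups. The Paneth cell markers Lyz1 and Defa24 were marked HIDATA (too many reads) instead of being tested. They are listed at 1021 and 4334 RPKM in wild-type villus and at 0 in ISC. These 0 entries can be failed estimates and are not read as low levels, so no Paneth sum is compared between villus and ISC. Goblet cell markers were called in both directions, 3 of 8 higher and 2 lower, as were enteroendocrine markers, 3 of 7 higher and 3 lower. Vim, the 1 mesenchyme marker tested, and 1 of 3 tested hepatocyte markers, Ttr, were called lower. The part of these markers in the enzyme values was not tested.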

How the data were processed

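RNA libraries (3 per group, called biological replicates in the labels) were unstranded TruSeq V2 libraries read as 75 bp single-end reads, per the labels' protocols. Build mm9, Bowtie, TopHat2 2.0.6, Cuffdiff and Cufflinks 2.0.1 are listed per the submitters' processing notes, with no role for any of them, and the gene annotation used is not stated there. The deposited RPKM values, 1 per group and gene, are the authors' own, per the file headers of the table of wild-type villus against ISC; the Eed-null table has no unit in its header and was read as RPKM because its wild-type villus values lie a constant factor apart (1.16192 to 1.16194 over 10353 genes). The authors deposited a p-value and q-value per gene; Benjamini-Hochberg adjustment of the p-values over tested genes gave the deposited q to within 2.12e-06. No model was fitted, since no value per library is printed; no interval or detection floor can be given. The lowest level of the higher group among tested genes was 0.351 RPKM in the Eed-null comparison and 0.246 RPKM in the other.

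Folds are ratios of RPKM without a pseudocount, and none is given against a listed 0, which can be a failed estimate. The code was tested on simulated data. Tools were Python 3.11.15, pandas 2.3.3, numpy 2.4.6 and matplotlib 3.10.9. Gene coordinates are those of the tables (mm9); promoter windows are RefSeq's on GRCm38.p6 and were matched by symbol. A locus entry is shared with another gene by 18 members. The members and lists were chosen with earlier results of these data known. Named were every member called between Eed-null and wild-type villus, per family the called member with the widest ratio in each direction between villus and ISC and the most abundant member of each group, uncalled members with 10 RPKM or more in wild-type villus (values are printed for a selection chosen after they were seen), up to 4 called genes per list and direction, and Eed, Lgr5 and Sis; other genes were named after their values were seen. List symbols Pgd2, Sts and Hbb-b1 were not found. Stem cell, enteroendocrine, tuft, mesenchyme and pancreas acinar markers were also counted. Between Eed-null and wild-type villus 1 of 8 stem cell markers was called lower, and 1 of 7 enteroendocrine, 0 of 6 tuft, 0 of 1 mesenchyme and 1 of 3 acinar markers were called higher. The shares over all tested genes were 3.46% lower and 7.9% higher. The 14 chromatin and input libraries were not analysed here.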

Additional observations from a re-analysis of the deposited data

How the results depend on the processing

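No paired analysis was possible because the tables print 1 value per group; for the same reason leaving out each replicate and the replicate block were not run, and whether 1 library decides a value cannot be seen. Between Eed-null and wild-type villus, the members called higher numbered 5 to 7 and those called lower 8 to 18 over q at or below 0.01 or 0.1, a minimum of 2-fold, minimums of 1 or 10 RPKM and removal of members sharing a locus entry; asking for 2-fold left 8 lower members, against 14 without it. At q of 0.01 or less, 16 of the 21 called members kept their call; Aldh1a2, Aldh3a2, Aldh4a1, Gstz1 and Sult1d1 lost it. Between wild-type villus and ISC, 43 to 48 members were called higher and 3 to 10 lower; the lower count was 3 with 10 RPKM or more in the higher group and 5 without members sharing a locus entry, against 9. The median log2 ratio of members ranged from -0.29 to -0.21 in the first comparison and from 1.57 to 1.95 in the second, over the pseudocounts, centring and filters tried, and no called member changed direction. Without members sharing a locus entry the ISC sums of Ugt and Nqo fell to 107 and 9.07 RPKM.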
